A study of Mus musculus with 15 samples.

Results

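Translation factors are the proteins that load the ribosome onto messenger RNA and drive it along the message. The genes described here are those whose symbol opens with Eif1 to Eif6, the initiation factors, or with Eef1 or Eef2, the elongation factors, pseudogene symbols left out. The rule took 64 of the 14801 genes of the table, and all 64 could be placed on the mouse annotation. It also takes in regulators that share these symbols: the kinases that act on eIF2 and eEF2, the inhibitors of eIF4E, and methyltransferases that modify the elongation factors.

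The 15 libraries came from 5 bone marrow cell fractions of healthy mice, isolated fresh by FACS, with 3 libraries for each. They are labelled ProNeut_Neutrophil and PreNeut_Neutrophil (ProNeut and PreNeut below), Neutrophil, CD115plusGMP (granulocyte-monocyte progenitors that carry CD115, the receptor for colony-stimulating factor 1) and CMP (common myeloid progenitors). The series title concerns an early unipotent neutrophil progenitor. The sources do not state strain, age, genotype, gates or the number of mice behind a library, so a p-value here reflects no more than the scatter of these libraries, which may be technical. In sorted bulk RNA, fewer cells of a type and less RNA per cell cannot be told apart.

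Initiation begins when eIF2 brings the initiator tRNA to the small ribosomal subunit, which eIF3 and the scanning factors eIF1, eIF1A and eIF5 hold ready. The cap complex recruits the message: eIF4E binds the cap, eIF4A unwinds RNA and eIF4G joins them to eIF3. Then eIF5B joins the large subunit, eEF1A delivers aminoacyl-tRNA, eEF2 moves the ribosome one codon on and eIF5A eases slow steps. Kinases that phosphorylate eIF2 slow initiation under stress, and 4E-binding proteins block eIF4E when mTORC1, the nutrient-sensing kinase complex, is inactive. In the neutrophil lineage, granule proteins are made while cells are still immature.

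The libraries formed a deep set (ProNeut and PreNeut, 7493694 to 68171606 reads over the genes of the table) and a shallow set (Neutrophil, CD115plusGMP and CMP, 810794 to 1444403 reads). ND6, the mitochondrial protein gene encoded on the strand opposite to the others, took 0.154% to 0.230% of mitochondrial reads in the deep set and 69.1% to 93.3% in the shallow set. In the shallow set a value may thus stem largely from reads of a gene's opposite strand, and it is given as a value for the locus. Set and population cannot be told apart across sets, so tests were made only within a set. All levels are log2 CPM, read counts scaled to library size on a log2 scale, and a gene with 0 reads stands at -8.14 to -4.90 in the deep set and at -1.31 to 0.63 in the shallow set. Neutrophil granule genes, the check of the labels, summed over 10 genes to 64795 to 75211 CPM in ProNeut and 54202 to 63351 CPM in PreNeut, and to 3790 to 9835 CPM in Neutrophil, 378 to 806 CPM in CD115plusGMP and 13.9 to 18.5 CPM in CMP. In Neutrophil, Prtn3 and Ctsg were at 0 reads.

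Within a library these genes ranked high. The median member stood at percentile 74.8 to 75.3 of all genes in ProNeut libraries and at 76.9 to 78.0 in PreNeut libraries. It stood at percentile 57.8 to 63.0 in Neutrophil, 67.7 to 77.9 in CD115plusGMP and 81.5 to 83.6 in CMP libraries. Per kilobase of exon, Eef1a1, which encodes the carrier of aminoacyl-tRNA, was the most abundant member in the deep set (level 6.42 log2 CPM per kilobase in ProNeut, 7.18 in PreNeut). Eif5a followed (6.35 in ProNeut, 6.86 in PreNeut), then Eef2 (6.26 in ProNeut, 6.63 in PreNeut) and Eif4g2 (5.65 in ProNeut, 5.79 in PreNeut). Eif5a2, the second gene for eIF5A, stood lowest, at -5.27 in ProNeut and -7.39 in PreNeut.

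**Figure D1:**
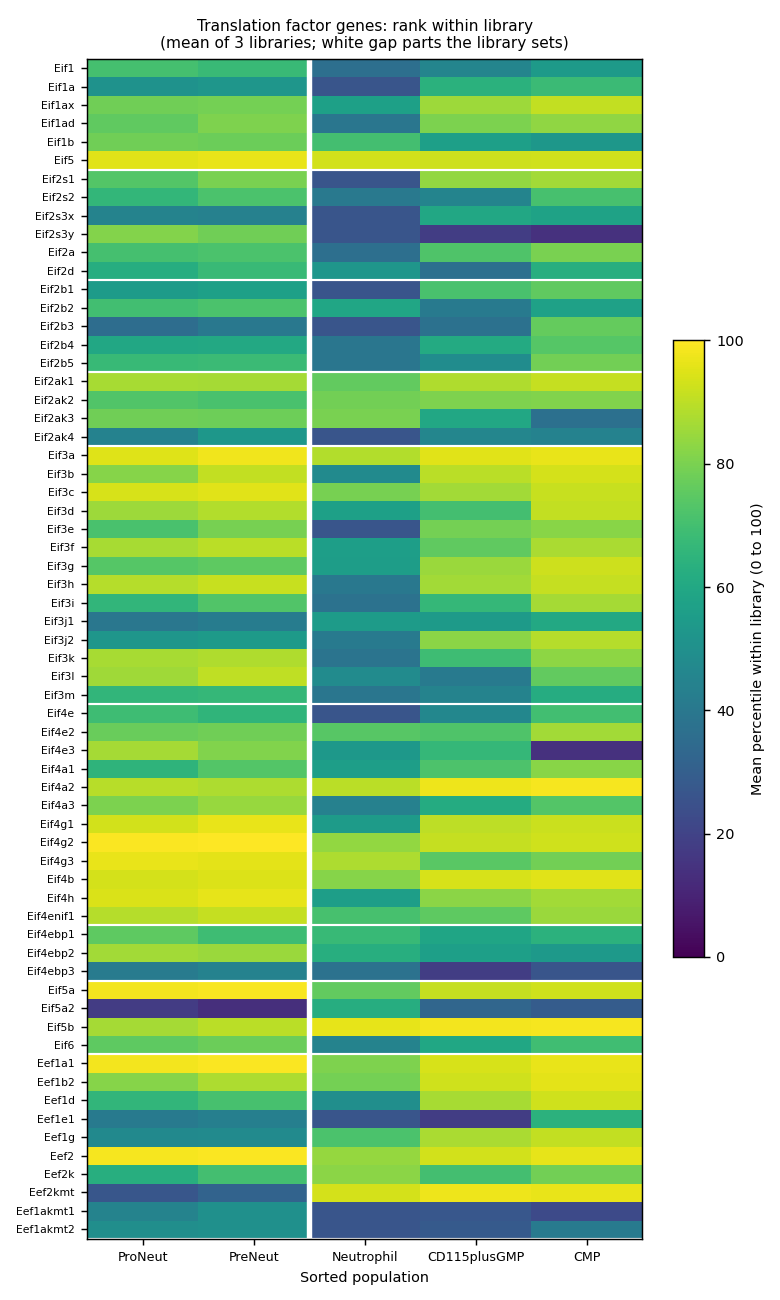
Mean percentile of each of the 64 translation factor genes within its library (colour, 0 to 100) for the 5 sorted populations, ordered by role with white lines between roles; the white gap parts the deep libraries from the shallow ones. Eef2, Eef1a1, Eif5a and Eif4g2 sat above percentile 98 in ProNeut and PreNeut, and the median member ranked lower in Neutrophil than in CD115plusGMP or CMP libraries.

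A few members held a very different rank in the 2 sets. Eef2kmt, the methyltransferase that modifies eEF2, stood at percentile 26.9 in ProNeut and 31.9 in PreNeut, but at 93.6 in Neutrophil, 97.7 in CD115plusGMP and 96.8 in CMP. This locus shares 472 exon bases with Alg1 on the opposite strand. Eif5b shares 1643 exon bases with Rev1 in the same way, and its level averaged 5.70 log2 CPM over the deep set and 9.48 over the shallow set. Eif3d shares 2151 exon bases with Gm17638, an antisense gene at -0.68 log2 CPM in the deep set and 11.77 in the shallow set. In all, 16 of the 64 members share at least 50 exon bases with a gene on the opposite strand. Eif2s3y, the Y-linked gene for the gamma subunit of eIF2, had 2127 reads over the ProNeut and 5440 over the PreNeut libraries and 0 reads in all 9 shallow libraries.

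The comparison of ProNeut with PreNeut asked how translation factor transcripts differ between these neutrophil subsets. Most members that passed the test were lower in ProNeut: of 61 tested, 26 (42.6%) fell and 3 (4.92%) rose at an adjusted p under 0.05 (limma, Benjamini-Hochberg over 8906 genes). Among all 8906 genes tested, 36.3% were called, 19.4% as lower and 16.9% as higher. The median difference of the members was -0.25 log2 units, against -0.02 for all genes, and 49 of the 61 were negative. In 33 of the 61 the groups did not overlap, against 46.5% of all genes tested. By size, 1 member, Eif2ak4, passed 1 log2 unit, against 7.55% of all genes tested. As deposited, 1728 of all genes were lower and 1505 higher. Scaling to plain read totals gave 29 members lower and 2 higher, with 2162 of all genes lower and 1072 higher. Median centring gave 21 members lower and 3 higher, with 1488 of all genes lower and 1810 higher. Every one of these calls rests on the spread within the 6 deep libraries. A fit that pooled the spread over all 15 libraries called 0 of the members, and 111 of all genes. The median SD of a member within a group was 0.144 in the deep and 0.882 in the shallow libraries. Summed over the members, reads came to 2993, 3010 and 3139 CPM in the ProNeut libraries and 3772, 3552 and 3920 CPM in the PreNeut libraries, without overlap.

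**Figure D2:**
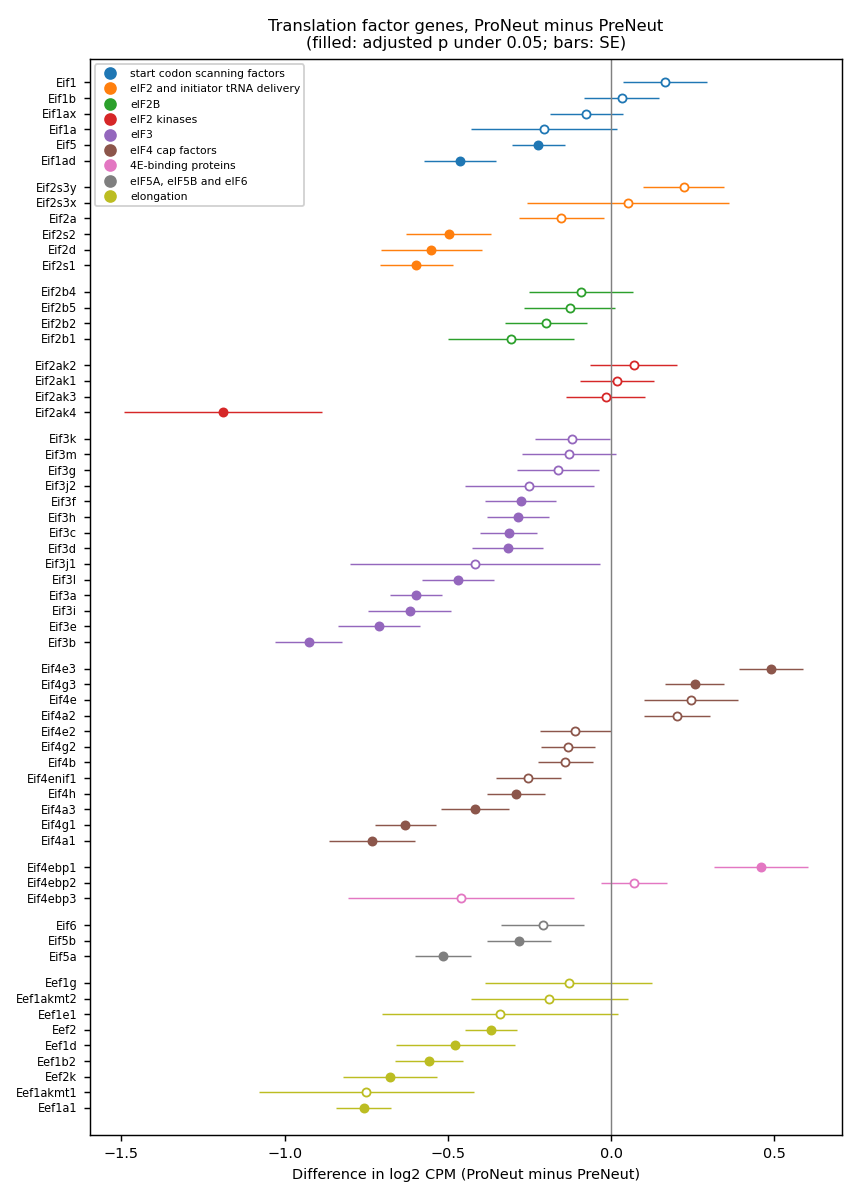
Difference in log2 CPM (ProNeut minus PreNeut, horizontal axis) for the 61 tested translation factor genes, grouped and coloured by role; points are limma estimates, bars their SE, and filled points passed an adjusted p of 0.05. The 14 eIF3 genes and the 9 with Eef1 or Eef2 symbols all lie left of 0, and Eif4e3, Eif4ebp1 and Eif4g3 are the filled points to the right.

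Other genes moved between these populations as well, and their part in the result was not tested. Granule genes split: 4 of 10 were lower in ProNeut (Elane by 5.0 and Mpo by 4.46 log2 units) and 4 were higher (Mmp8 by 7.20 and Mmp9 by 4.39). All 4 tested erythroid markers were higher, with 47.2 to 52.0 CPM in sum over 8 genes in ProNeut against 2.28 to 6.63 CPM in PreNeut. All 3 tested basophil and mast cell markers were lower, with 2.28 to 2.51 CPM over 6 genes in ProNeut against 27.3 to 31.4 CPM in PreNeut, and Fcer1a had 0 reads in ProNeut. The 1 tested T and NK cell marker, Nkg7, fell (3.21 to 5.24 CPM over 3 genes in ProNeut, 21.6 to 29.3 CPM in PreNeut).

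The eIF3 complex, which binds the small ribosomal subunit, had 9 of its 14 genes called as lower, beside the 19.4% of all genes tested. The other 5 were negative without passing. Of the 9 calls, those of Eif3d, Eif3f and Eif3h were lost in 4 of the 6 runs that left out 1 library. Eif3b (chr5:140419328-140443360, plus strand, GRCm38), one of the core subunits, read 5.07, 5.13 and 5.01 log2 CPM in the ProNeut libraries against 6.06, 5.81 and 6.14 in the PreNeut libraries. The groups did not overlap, and the gene fell by 0.93 log2 units (SE 0.10, adjusted p = 1e-07). Eif3a, the largest subunit, its partner in that core, read 6.74, 6.77 and 6.73 in ProNeut against 7.32, 7.38 and 7.34 in PreNeut. It differed little between replicates and fell by 0.60 (SE 0.08, adjusted p = 1.8e-06).

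Eif3e fell by 0.71 (SE 0.12), Eif3i by 0.62 (SE 0.13), Eif3l by 0.47 (SE 0.11) and Eif3c by 0.31 (SE 0.09). Eif3d, which can bind the cap itself, fell by 0.32 (SE 0.11), Eif3h by 0.29 (SE 0.10) and Eif3f by 0.28 (SE 0.11). Eif3d and Eif3f values overlapped between the groups. Eif3g, Eif3j1, Eif3j2, Eif3k and Eif3m did not pass, with differences of -0.42 to -0.12. Near-identical copies elsewhere in the genome cover 88.8% of the Eif3e transcript, 81.5% of Eif3h, 87.7% of Eif3m and 100% of Eif3j2, so their values are uncertain. Copies of Eif3a, Eif3b and Eif3c were not found. In sum the eIF3 genes took 535, 525 and 576 CPM in ProNeut and 752, 671 and 774 CPM in PreNeut.

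Among genes with Eef1 or Eef2 symbols, 5 of 9 tested fell, beside 19.4% of all genes tested, and all 9 were negative. These 9 are not all elongation factors. They include the kinase gene Eef2k, which fell, and the methyltransferase genes Eef1akmt1 and Eef1akmt2 and Eef1e1, which did not pass. Eef1a1 (chr9:78478449-78489151, minus strand) read 7.63, 7.74 and 7.84 log2 CPM in ProNeut against 8.55, 8.38 and 8.55 in PreNeut. The groups lay apart, and it fell by 0.76 (SE 0.08, adjusted p = 1e-07). Eef2 (chr10:81176631-81182498, plus strand), the factor that moves the ribosome along the message, read 7.96, 7.97 and 8.07 in ProNeut against 8.38, 8.30 and 8.41 in PreNeut. It fell by 0.37 (SE 0.08, adjusted p = 6.8e-04). Eef2k, the kinase that inactivates eEF2, fell by 0.68 (SE 0.14, adjusted p = 5.7e-04) and read 3.50, 3.58 and 3.40 in ProNeut against 4.36, 4.17 and 3.99 in PreNeut.

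Genes of the exchange complex that reloads eEF1A were not alike. Eef1b2 fell by 0.56 (SE 0.10, adjusted p = 1.6e-04), with 4.99, 5.11 and 5.20 log2 CPM in ProNeut against 5.72, 5.49 and 5.77 in PreNeut. Eef1d fell by 0.48 (SE 0.18, adjusted p = 0.042), but its groups overlapped and its PreNeut values spread over 4.33, 3.67 and 4.71. Without PreNeut replicate 3 it was -0.24 (adjusted p = 0.29). Its call was kept under 5 of 16 alternatives: both other filters on low values, quantile normalization, median centring, voom weights and 4 runs with 1 library left out were among those that lost it. Eef1g did not pass (-0.13, SE 0.26). Copies cover 83.5% of the Eef1a1, 72.0% of the Eef1g, 43.5% of the Eef2 and 14.3% of the Eef1b2 transcript. For Eef1d and Eef2k none were found.

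**Figure D3:**
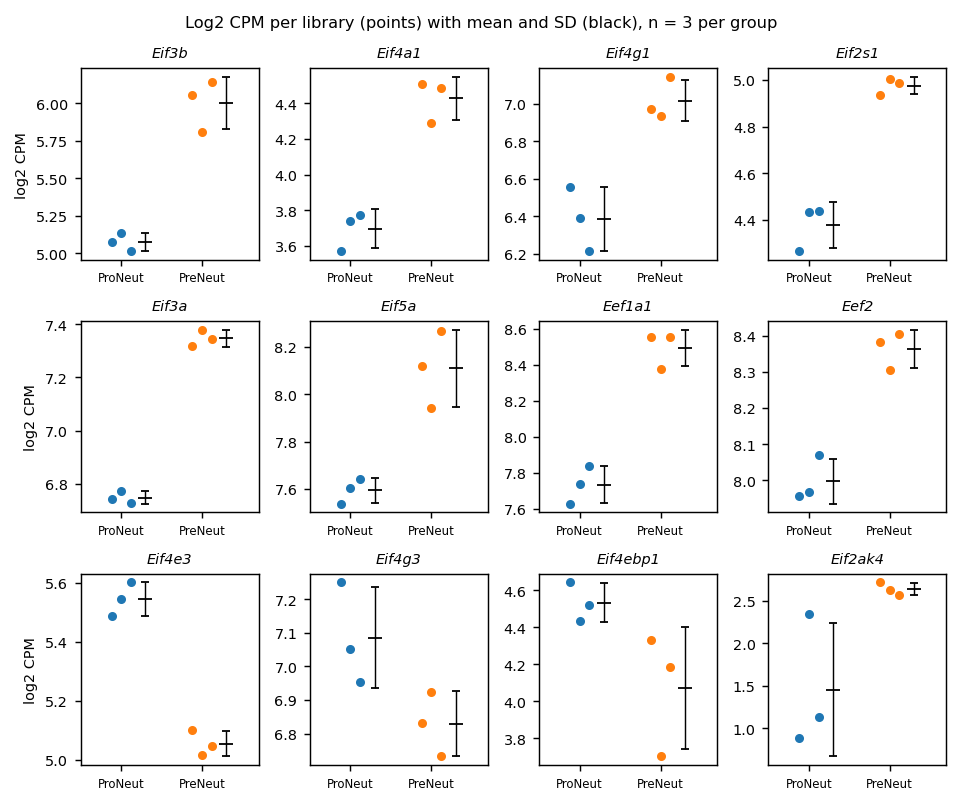
Log2 CPM of 12 translation factor genes in each ProNeut library (left in each panel) and PreNeut library (right); coloured points are libraries and the black marks are mean and SD (n = 3 per group). The first 8 genes are lower in all ProNeut libraries, Eif4e3, Eif4g3 and Eif4ebp1 are higher, and Eif2ak4 spreads over 0.88 to 2.34 in ProNeut.

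In the cap complex, genes of the eIF4G family had calls in both directions, of which that of Eif4g3 depended on the settings. Eif4g1 (chr16:20668313-20692884, plus strand), the main scaffold, read 6.55, 6.39 and 6.22 log2 CPM in ProNeut against 6.97, 6.94 and 7.14 in PreNeut and fell by 0.63 (SE 0.09, adjusted p = 8.8e-06). Its paralogue Eif4g3 (chr4:137993022-138208508, plus strand) read 7.25, 7.05 and 6.95 in ProNeut against 6.83, 6.92 and 6.73 in PreNeut and rose by 0.26 (SE 0.09, adjusted p = 0.028). The call of Eif4g3 was kept under 7 of 16 alternatives. It was lost under both other filters on low values, under quantile normalization (0.18), under plain read totals (0.17) and in 4 of the 6 runs with 1 library left out. As a description chosen after the values were seen, Eif4g3 minus Eif4g1 within a library was 0.70, 0.66 and 0.74 in ProNeut and -0.14, -0.01 and -0.41 in PreNeut.

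The eIF4A helicase genes differed in their calls, a difference that was not itself tested. Eif4a1 read 3.57, 3.74 and 3.77 in ProNeut against 4.51, 4.29 and 4.48 in PreNeut and fell by 0.73 (SE 0.13, adjusted p = 1e-04). Eif4a2, which shares its function, read 5.77, 5.93 and 5.89 in ProNeut against 5.66, 5.84 and 5.49 in PreNeut, and its difference of 0.20 (SE 0.10, adjusted p = 0.12) did not pass. Eif4a3, a helicase of the exon junction complex rather than of initiation, fell by 0.42 (SE 0.10), as did Eif4h, a partner of the helicase, by 0.29 (SE 0.09). Copies cover 68.8% of the Eif4a1, 15.55% of the Eif4a2 and 95.7% of the Eif4a3 transcript. None of Eif4g1 and Eif4g3 were found.

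Of the cap-binding genes, Eif4e3 (chr6:99625135-99666771, minus strand) rose: 5.49, 5.54 and 5.60 log2 CPM in ProNeut against 5.10, 5.02 and 5.05 in PreNeut (difference 0.49, SE 0.10, adjusted p = 3.3e-04). Eif4e, the general cap-binding protein, read 4.03, 4.06 and 4.03 in ProNeut against 4.02, 3.82 and 3.53 in PreNeut. The groups did not overlap, but the difference of 0.25 (SE 0.14, adjusted p = 0.19) did not pass. Eif4ebp1, the inhibitor that mTORC1 switches off, rose by 0.46 (SE 0.14, adjusted p = 0.014). It read 4.64, 4.43 and 4.52 in ProNeut against 4.33, 3.70 and 4.18 in PreNeut, and without PreNeut replicate 2 the difference was 0.27 (adjusted p = 0.12). Eif4ebp2 (0.07, SE 0.10) and Eif4ebp3 (-0.46, SE 0.35) did not pass. Eif4b, Eif4e2, Eif4g2 and Eif4enif1 did not pass either, with differences of -0.25 to -0.11. Copies cover 15.1% of the Eif4e3 and 13.1% of the Eif4e transcript.

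Promoters of 5 cap complex and elongation genes are shown because paralogues among them differed in their calls: the 250 bases before a RefSeq transcript start (GRCm38.p6), read on the gene's strand. Capitals mark CACGTG, the E-box, which reads the same on both strands and is a letter match only.
Eif4g1 (lower in ProNeut; chr16:20672477-20672726, plus strand): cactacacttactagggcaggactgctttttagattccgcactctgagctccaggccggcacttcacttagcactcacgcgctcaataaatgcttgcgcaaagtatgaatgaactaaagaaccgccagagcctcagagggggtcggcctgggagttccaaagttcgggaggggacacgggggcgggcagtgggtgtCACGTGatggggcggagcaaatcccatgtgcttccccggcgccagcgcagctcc
Eif4g3 (higher in ProNeut; chr4:137993205-137993454, plus strand): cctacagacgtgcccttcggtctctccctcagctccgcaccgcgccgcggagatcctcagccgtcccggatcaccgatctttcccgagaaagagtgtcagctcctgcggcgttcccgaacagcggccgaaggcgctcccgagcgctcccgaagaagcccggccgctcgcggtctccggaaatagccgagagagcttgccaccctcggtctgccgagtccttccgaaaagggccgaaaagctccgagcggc
Eif4a1 (lower in ProNeut; chr11:69672424-69672673, minus strand): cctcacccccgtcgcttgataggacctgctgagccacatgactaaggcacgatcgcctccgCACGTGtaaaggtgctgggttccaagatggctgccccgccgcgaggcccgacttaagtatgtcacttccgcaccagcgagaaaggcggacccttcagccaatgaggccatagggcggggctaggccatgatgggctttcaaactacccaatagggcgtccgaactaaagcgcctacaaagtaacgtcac
Eif4a2 (did not pass; chr16:23107218-23107467, plus strand): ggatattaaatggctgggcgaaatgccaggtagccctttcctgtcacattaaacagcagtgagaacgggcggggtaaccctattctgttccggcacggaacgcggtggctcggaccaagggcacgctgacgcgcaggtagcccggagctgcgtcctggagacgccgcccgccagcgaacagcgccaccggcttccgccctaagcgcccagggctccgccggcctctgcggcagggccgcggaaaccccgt
Eef2 (lower in ProNeut; chr10:81176381-81176630, plus strand): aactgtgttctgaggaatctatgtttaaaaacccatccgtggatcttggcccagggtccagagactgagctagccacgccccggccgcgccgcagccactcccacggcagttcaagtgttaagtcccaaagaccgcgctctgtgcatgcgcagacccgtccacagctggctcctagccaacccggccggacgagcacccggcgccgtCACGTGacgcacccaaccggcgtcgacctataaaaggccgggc

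The E-box opens 54 bases before the start of Eif4g1, 189 before that of Eif4a1 and 43 before that of Eef2, and is not in the Eif4g3 and Eif4a2 windows shown. RefSeq windows of 300 bases (250 before and 50 after the start) were at hand for 50 of the 64 members, in 65 windows. CACGTG lay in 21.5% of the member windows and in 7.15% of all 32851 windows. It was found for 12 members: Eef2, Eef2k, Eif1b, Eif3a, Eif3f, Eif3k, Eif4a1, Eif4e, Eif4g1, Eif4h, Eif5a and Eif5a2. Of these, 8 fell in ProNeut, 3 did not pass and Eif5a2 was not tested. Of the other 38 members with a window, 14 fell, 1 rose and 22 did not pass. Among all genes tested, 19.4% fell, but their calls were not split by this motif. A link between the motif and the calls was not tested.

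In all, 10 motifs were searched, and the E-box was picked for most detail after its share in these windows was seen. That share does not set it apart, since CACTTCC had the same share of member windows and CCAAT a larger one. On both strands, CCGGAAGT lay in 16.9% of member windows and 3.89% of all, CACTTCC in 21.5% and 11.0%, TTTCCGG in 12.3% and 3.54%, and ACTACA in 12.3% and 10.3%. CCAAT lay in 24.6% and 37.4%, TATAAA in 7.69% and 13.6%, TGATGNAA in 3.08% and 3.97%, and the NRF1 palindrome in 1.54% and 0.971%. CTTTC or CTTTT within 25 bases of the start on the gene's strand lay in 10.8% and 11.5%. A match to CCGGAAGT can overlap one to CACTTCC on the opposite strand. Members that fell and that did not pass numbered 7 and 6 with CACTTCC, 4 and 4 with CCGGAAGT and 5 and 3 with ACTACA. They numbered 5 and 10 with CCAAT, 4 and 1 with TATAAA, 1 and 1 with TGATGNAA and 0 and 1 with the NRF1 palindrome. With TTTCCGG they numbered 3 and 3, and Eif4g3, which rose, has it as well.

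The eIF2 group was lower where it forms the trimer's alpha and beta subunits. Eif2s1, the alpha subunit that stress kinases phosphorylate, read 4.27, 4.43 and 4.44 log2 CPM in ProNeut against 4.94, 5.01 and 4.99 in PreNeut and fell by 0.60 (SE 0.11, adjusted p = 1.6e-04). Eif2s2, the beta subunit, fell by 0.50 (SE 0.13, adjusted p = 0.0043), with 3.66, 3.79 and 3.94 in ProNeut against 4.33, 4.29 and 4.27 in PreNeut. The gamma subunit genes did not pass: Eif2s3x differed by 0.05 (SE 0.31) and Eif2s3y by 0.22 (SE 0.12). Eif2d, which can deliver initiator tRNA without eIF2, fell by 0.55 (SE 0.15). Eif2a differed by -0.15 (SE 0.13). Copies cover 27.9% of the Eif2s1 and 39.0% of the Eif2s2 transcript.

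None of the 4 tested genes of eIF2B, which recharges eIF2 with GTP, passed; their differences ran from -0.31 to -0.09. At an unadjusted p under 0.05 no eIF2B gene passed either, since the lowest of theirs was 0.13.

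Of the eIF2 kinases, Eif2ak4 (chr2:118388618-118475234, plus strand) (GCN2, which senses uncharged tRNA) fell. It read 0.88, 2.34 and 1.13 log2 CPM in ProNeut, from 189 reads in all, against 2.72, 2.62 and 2.57 in PreNeut, from 1175 reads. The groups did not overlap, although ProNeut replicate 2 lay close to PreNeut, and the difference was -1.19 (SE 0.30, adjusted p = 0.0032). The heme-regulated kinase Eif2ak1 differed by 0.02 (SE 0.11), the double-stranded RNA kinase Eif2ak2 by 0.07 (SE 0.13) and the endoplasmic reticulum kinase Eif2ak3 by -0.02 (SE 0.12). None of these 3 passed, and a missed threshold does not show equal levels.

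Joining, scanning and late factors followed the majority in part. Eif5a read 7.54, 7.60 and 7.64 log2 CPM in ProNeut against 8.12, 7.94 and 8.27 in PreNeut and fell by 0.51 (SE 0.09, adjusted p = 4.4e-05). Copies cover 32.15% of the Eif5a transcript. Eif5b fell by 0.28 (SE 0.10, adjusted p = 0.026) and Eif5, which activates the GTPase of eIF2, by 0.22 (SE 0.08, adjusted p = 0.034). Eif1ad, an eIF1A-like gene, fell by 0.46 (SE 0.11) and shares 428 exon bases with Banf1 on the opposite strand. Eif6, which keeps free large subunits apart, did not pass (-0.21, SE 0.13). Eif1 (0.16, SE 0.13) and Eif1ax (-0.08, SE 0.11), which guard start codon choice, did not pass, nor did Eif1a and Eif1b.

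When 1 library at a time was left out, 20 of the 29 calls were kept in all 6 runs. The other 9 were Eef1d, Eif3d, Eif3f, Eif3h, Eif4ebp1, Eif4g3, Eif4h, Eif5 and Eif5b. Each kept its sign in every run, and apart from Eef1d and Eif4ebp1 its adjusted p rose to between 0.067 (Eif4h, without PreNeut replicate 1, difference -0.25) and 0.24 (Eif3f, without PreNeut replicate 1, difference -0.19). Median centring also lost the calls of Eef1d, Eif3d, Eif3f, Eif5 and Eif5b. Without ProNeut replicate 1, Eif4g3 stood at 0.17 (adjusted p = 0.17). Without ProNeut replicate 2, Eif5b stood at -0.20 (adjusted p = 0.17), Eif5 at -0.19 (adjusted p = 0.13) and Eif3d at -0.25 (adjusted p = 0.13). Without PreNeut replicate 1, Eif3h stood at -0.25 (adjusted p = 0.098). With the 21 tested members left out that have copies over at least 10% of their transcript, 18 of 40 tested members were called. Of all genes tested, 36.3% were called, and copies were not looked for among them.

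Groups of translation genes outside the factors were read beside them, with their background the same 19.4% lower and 16.9% higher. Cytosolic aminoacyl-tRNA synthetase genes, whose products charge tRNA, had 12 of 22 lower and none higher (median -0.31). Tars, for threonine, fell by 1.21 (SE 0.18), Yars, for tyrosine, by 1.15 (SE 0.22), Iars, for isoleucine, by 0.83 (SE 0.17) and Aars, for alanine, by 0.71 (SE 0.11). Termination and recycling genes had 3 of 5 lower: Abce1, which splits ribosomes, by 0.53 (SE 0.10), and the release factors Gspt1 by 0.35 (SE 0.10) and Etf1 by 0.29 (SE 0.09). Mitochondrial translation factors had 4 of 10 lower (Mtrf1l by 0.90, Tsfm by 0.87, Guf1 by 0.82 and Gfm1 by 0.64), with a median of -0.55.

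Regulators of the cap and the poly(A) tail went both ways, with 4 of 13 lower and 3 higher. The poly(A)-binding protein genes Pabpc4 and Pabpc1 fell by 1.06 (SE 0.36) and 0.45 (SE 0.08). Pdcd4, an inhibitor of eIF4A, rose by 0.80 (SE 0.20), and Paip2, an inhibitor of poly(A)-binding protein, rose by 0.40 (SE 0.11). In the mTORC1 group 3 of 12 rose and none fell: Sesn2, a stress-induced inhibitor of the complex, by 1.74 (SE 0.31), Rps6kb2 by 0.35 (SE 0.12) and Mlst8 by 0.29 (SE 0.08). None of the 7 tested integrated stress response genes passed, Atf4 among them (0.18, SE 0.09), nor did Dhps and Dohh, the hypusine enzymes of eIF5A.

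**Figure D4:**
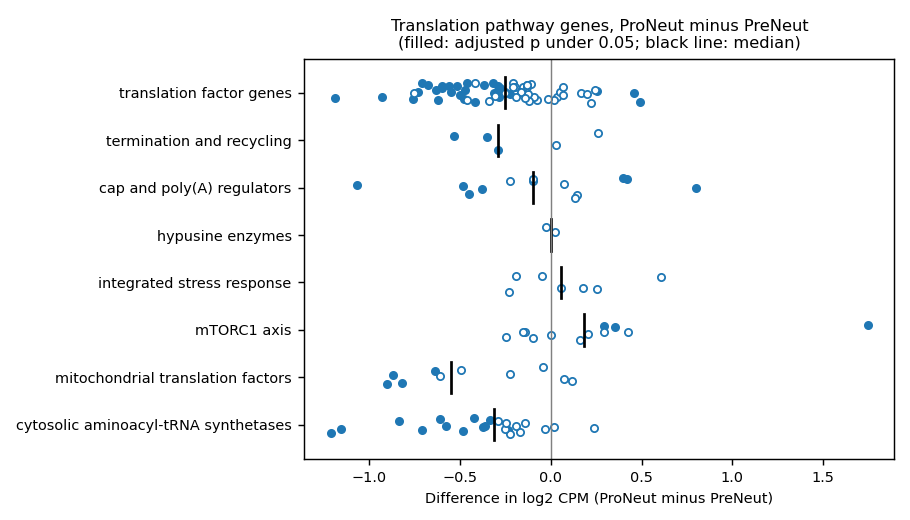
Difference in log2 CPM (ProNeut minus PreNeut, horizontal axis) for each tested gene of the translation factor group and of 7 related lists (rows); filled points passed an adjusted p of 0.05 and the black line is the median of the row. The medians run from -0.55 for mitochondrial translation factors to 0.18 for the mTORC1 group, and Sesn2 is the point at 1.74.

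In the shallow set, the comparison of Neutrophil with CMP set mature cells against early progenitors. Translation factor loci were mostly lower in Neutrophil: of 60 tested, 28 (46.7%) fell and 7 (11.7%) rose, against 19.7% lower and 28.9% higher, 48.6% in all, among the 10812 genes tested. Of the members that fell, 7 had 0 reads in all Neutrophil libraries, where their values reflect library size alone. The median member differed by -1.67 log2 units in the fit, against 0.19 for all genes. A second measure was the ratio of reads pooled over each group, with a group at 0 reads set at 3 reads. Its median over 60 members was -1.16 log2 units, and it was not taken for all genes. It differs from the fit for every member, not only for those at 0 reads. Neutrophil libraries had 18 to 30 of the 64 members at 0 reads each, against 2 to 6 in CMP libraries; of all 14801 genes, 7227 to 8266 were at 0 reads in Neutrophil and 3672 to 4651 in CMP libraries. Summed over members, reads came to 1417, 1878 and 2085 CPM in Neutrophil and 4478, 4746 and 5087 CPM in CMP. As plain reads these sums were 458, 613 and 1302 in Neutrophil and 3875, 5013 and 6323 in CMP. Loci that share exon bases with opposite-strand genes weigh on them. Over the group, Eif5b had 493 reads in Neutrophil and 3260 in CMP, Eif4a2 144 and 3175, and Eef2kmt 243 and 902. Markers of several cell types moved in this comparison as well, and their part in the result was not tested. Granule genes rose (6 of 10), and all 7 tested erythroid genes fell, with 0 to 9.61 CPM over 8 genes in Neutrophil and 394 to 524 CPM in CMP. The 1 tested B lymphoid marker was higher, with 43.3 to 88.8 CPM over 4 genes in Neutrophil and 0.947 to 6.44 CPM in CMP. The 1 tested T and NK cell marker was higher, with 6.19 to 17.6 CPM over 3 genes in Neutrophil and 0 CPM in CMP, while Cd3e and Nkg7 were at 0 reads in Neutrophil. Of the stem and progenitor markers 2 of 5 were lower, with 0 to 19.2 CPM in Neutrophil and 29.0 to 39.3 CPM in CMP. Of the monocyte markers 1 of 6 was higher and 1 lower (12.3 to 94.5 CPM in Neutrophil, 17.7 to 23.1 CPM in CMP), and of the dendritic markers 1 of 3 was lower (0 to 14.4 CPM over 4 genes in Neutrophil, 9.65 to 17.3 CPM in CMP).

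The split depends on how libraries are scaled. With plain read totals the all-gene median shifted by -1.36, with 45 members lower and 1 higher. Quantile normalization moved it by -0.70 (39 lower, 2 higher) and median centring by -0.47 (36 lower, 4 higher). Of all genes called, 40.5% were lower as deposited, against 69.6% with plain totals, 58.4% with quantile normalization and 51.3% with median centring. Relative to the median of all genes, the median member stood at -1.86 to -2.08 under these scalings.

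Eif2s1 had 0 reads in all Neutrophil libraries and 4.42, 4.85 and 5.06 log2 CPM in CMP (89 reads). It was at least 11.9-fold lower, from a floor of 3 reads over the group. Eif3b read 2.95, 0.62 and 2.49 in Neutrophil against 6.39, 6.51 and 6.37 in CMP (5 and 270 reads), a difference of -4.40 (SE 0.57, adjusted p = 1.9e-05). Of the eIF3 loci, 9 of 14 fell, beside 19.7% of all genes tested, and all 14 were negative. Eif3e had 0 Neutrophil reads against 60 in CMP, at least 8.05-fold lower.

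Among cap and elongation loci, Eif4a2 read 6.24, 6.29 and 7.26 in Neutrophil against 9.78, 9.89 and 10.15 in CMP, a difference of -3.34 (SE 0.30). The Eif4a2 locus shares 194 exon bases with Rfc4 on the opposite strand. Its level averaged 8.54 log2 CPM over the shallow set and 5.76 over the deep set. Eif4g1 fell by 3.16 (SE 0.72), with 0.63, 3.79 and 4.07 in Neutrophil against 6.0, 5.79 and 6.19 in CMP. Neutrophil replicate 1 had 0 reads of it, and without that library the difference was -2.07. Eef1a1 read 4.72, 5.01 and 6.02 in Neutrophil against 7.83, 8.0 and 8.11 in CMP (-2.73, SE 0.40). Eef2 read 5.92, 4.70 and 6.69 in Neutrophil against 7.75, 7.92 and 7.93 in CMP (-2.10, SE 0.46). None of these groups overlapped, as held for 56.9% of all genes tested. Of the tested loci with Eef1 or Eef2 symbols, 5 of 8 fell, beside 19.7% of all genes. The 8 include the kinase Eef2k and the methyltransferases Eef2kmt and Eef1akmt2, none of which fell. Eef1d fell by 4.10 (SE 0.68), Eef1b2 by 2.44 (SE 0.39) and Eef1g by 1.36 (SE 0.44).

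The 7 loci that rose included a stress kinase and paralogues of lower members. Eif2ak3, the endoplasmic reticulum kinase, read 5.38, 5.66 and 4.54 in Neutrophil against 1.53, -1.08 and 1.86 in CMP (43 and 6 reads), a difference of 4.42 (SE 0.81, adjusted p = 4e-04). Eif4g3 read 5.84, 6.17 and 6.82 in Neutrophil against 4.34, 3.31 and 4.18 in CMP, a difference of 2.33 (SE 0.62, adjusted p = 0.0063). Eif4e3 had 11 reads in Neutrophil and 0 in CMP, at least 9.11-fold higher. Eif5a2 had 11 against 3 reads, a ratio of 9.11 with a 95% counting interval of 2.41 to 50.8.

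Eif1b rose by 2.11 (SE 0.77), Eef2k by 1.60 (SE 0.50) and Eif5 by 1.24 (SE 0.35). Eif5 turned to -0.13 under plain read totals; the other 6 kept their sign under every alternative. Under quantile normalization, median centring and plain totals the calls of Eif1b, Eef2k and Eif5 were lost, and under quantile normalization and plain totals those of Eif4g3 and Eif4e3. Plain totals and the fit of all 15 libraries each lost that of Eif5a2, and 2 CPM added before the log lost that of Eif4e3. Eif2ak3, Eif1b and Eef2k each share exon bases with an opposite-strand gene. The eIF2B genes Eif2b1 and Eif2b3 had 0 Neutrophil reads and were at least 6.84-fold and 6.17-fold lower, and Eif4e, with 0 against 31 reads, at least 4.16-fold lower. Eif2ak1, Eif2ak2, Eif2b5, Eif2s2, Eif4a1, Eif4ebp1, Eif4ebp2 and Eif6 did not pass. In runs that left out 1 library at a time, 27 of the 35 calls were kept in all. Eif1ax, Eif1b, Eif2s3x, Eif4e, Eif5a, Eif5a2, Eef1g and Eef2k lost theirs in at least 1 run, with adjusted p up to 0.15 (Eif1b, without CMP replicate 3, difference 1.61). Eif1ax stood at -1.40 without Neutrophil replicate 1, against -2.59 with all libraries.

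**Figure D5:**
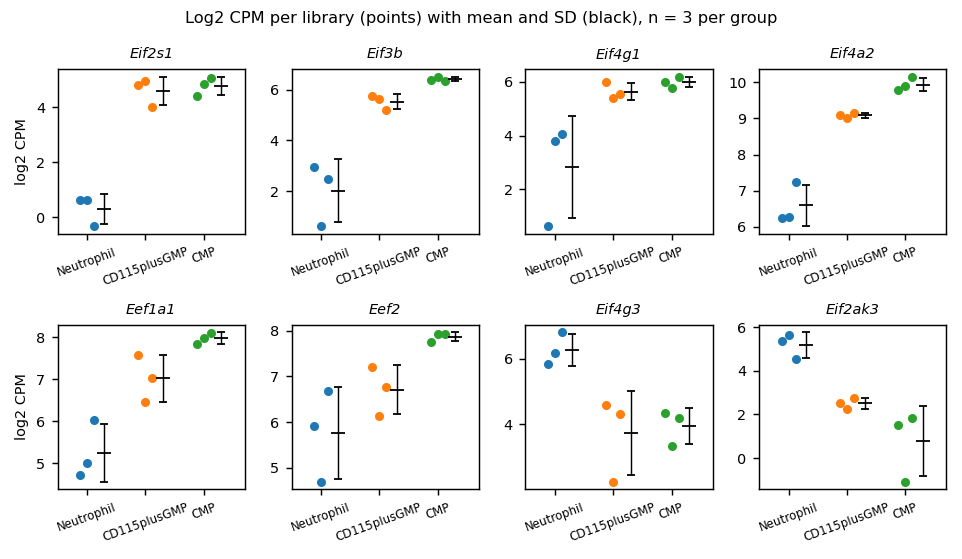
Log2 CPM of 8 loci in each Neutrophil, CD115plusGMP and CMP library (left to right in a panel); coloured points are libraries and the black marks are mean and SD (n = 3 per group). Eif2s1 sits at the value of 0 reads in Neutrophil, Eif4a2 and Eef1a1 step upward to CMP, and Eif4g3 and Eif2ak3 are highest in Neutrophil.

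Neutrophil against CD115plusGMP uses the same Neutrophil libraries, so these values are not independent of those above. Here 20 of 60 members (33.3%) fell and 5 (8.33%) rose, against 15.5% lower and 24.0% higher, 39.5% in all, of the genes tested. Plain read totals gave 24 lower and 1 higher, and quantile normalization 28 lower and 1 higher. Of all genes called, 39.3% were lower as deposited, 62.7% with plain totals and 57.4% with quantile normalization. Of the members that fell, 5 had 0 reads in all Neutrophil libraries. The median member differed by -0.91 in the fit, against 0.16 for all genes. As ratios of reads pooled over each group, with a group at 0 reads set at 3 reads, the median was -0.58. That median covers the 58 members with more than 3 reads in at least 1 group. Marker genes moved with it, and their part was not tested. Monocyte markers fell (4 of 6), with 12.3 to 94.5 CPM in Neutrophil and 248 to 436 CPM in CD115plusGMP. Of 10 granule genes 6 were higher and 4 lower, with 3790 to 9835 CPM in Neutrophil and 378 to 806 CPM in CD115plusGMP. The 1 tested B lymphoid marker was higher (43.3 to 88.8 CPM over 4 genes in Neutrophil, 1.88 to 3.90 CPM in CD115plusGMP), as was the 1 tested T and NK cell marker (6.19 to 17.6 CPM over 3 genes in Neutrophil, 0 to 7.53 CPM in CD115plusGMP).

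Eif3b fell by 3.52 (SE 0.57), with 5.75, 5.64 and 5.21 log2 CPM in CD115plusGMP. Eif4a2 fell by 2.50 (SE 0.30, adjusted p = 1.5e-05), with 9.11, 9.02 and 9.15 in CD115plusGMP. Eif2s1 was at least 10.5-fold lower (0 against 45 reads). Eif4g1 fell by 2.81 (SE 0.72), or by 1.71 without Neutrophil replicate 1. Eef1a1 fell by 1.77 (SE 0.40), and Eef2 did not pass (-0.94, SE 0.46). The members that rose were Eif2ak3 (2.69, SE 0.81), Eif5a2 (11 against 3 reads, a ratio of 5.25 with a 95% counting interval of 1.39 to 29.3), Eif4g3 (2.56, SE 0.62), Eef2k (2.31, SE 0.50) and Eif5 (1.02, SE 0.35). Quantile normalization and plain totals each lost the calls of Eif2ak3, Eif5a2, Eif4g3 and Eif5. Of the 25 calls, 15 were kept in all runs that left out 1 library. Those of Eif1a, Eif1ad, Eif2a, Eif2ak3, Eif2s3x, Eif3a, Eif3j2, Eif5, Eif5a and Eif5a2 were not, with adjusted p up to 0.16 (Eif5a2, without CD115plusGMP replicate 1, difference 1.93).

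CD115plusGMP and CMP, both progenitors, gave few differences: 4 of 60 members (6.67%) were called, against 12.7% of all genes tested, 8.84% as higher and 3.83% as lower. Of the 4 members, 2 rose and 2 fell. At an unadjusted p under 0.05, 11 passed, a threshold at which the share of all genes was not taken. Eif4e3 had 21 reads in CD115plusGMP and 0 in CMP and was at least 12.1-fold higher. Its CMP values reflect library size alone, so no p-value is given. Eef2kmt rose by 1.17 (SE 0.26), with 9.31, 9.63 and 9.03 log2 CPM in CD115plusGMP against 8.18, 8.11 and 8.18 in CMP. Eif2b3 fell, with 3 reads against 46 in CMP, a ratio of 8.84 lower with a 95% counting interval of 2.84 to 44.5. Eif3d fell by 2.31 (SE 0.60). Of these calls, that of Eef2kmt was kept in every run that left out 1 library. It was not kept under quantile normalization, median centring or plain totals. Plain read totals gave 9 lower and 1 higher, and quantile normalization 7 lower and none higher. Of all genes called, 30.2% were lower as deposited, 58.1% with plain totals and 44.7% with quantile normalization. The other 3 calls were lost in at least 1 run (up to an adjusted p of 0.17 for Eif2b3, without CD115plusGMP replicate 2, difference -2.13). The median member differed by -0.65 against 0.06 for all genes. All 14 eIF3 loci were negative and 1 passed. Marker genes moved here too, and their part was not tested. Erythroid genes fell (6 of 7 tested, 3.81 to 5.64 CPM in CD115plusGMP and 394 to 524 CPM in CMP). Monocyte markers rose (4 of 6, 248 to 436 CPM in CD115plusGMP and 17.7 to 23.1 CPM in CMP), as did 4 of 10 granule genes (378 to 806 CPM in CD115plusGMP and 13.9 to 18.5 CPM in CMP). Lower were the 1 tested basophil and mast cell marker (0 to 7.53 CPM over 6 genes in CD115plusGMP and 2.31 to 7.57 CPM in CMP), 1 of 5 stem and progenitor markers (9.41 to 40.3 CPM in CD115plusGMP and 29.0 to 39.3 CPM in CMP) and 1 of 3 dendritic markers (7.53 to 11.7 CPM over 4 genes in CD115plusGMP and 9.65 to 17.3 CPM in CMP).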

How the data were processed

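Messenger RNA libraries (Universal Plus mRNA-Seq, Nugen, per the labels) were made from 15 sorted bone marrow samples, 3 for each of 5 labels. The authors deposited 1 table of log2 CPM values per gene, made with featureCounts 1.22.2 and edgeR 1.30.5 on GRCm38, per the submitters' processing notes. The aligner, strand setting and annotation are not named there. Every value was log2 of a whole number of reads plus 0.5, within a tolerance of 0.001, so reads were recovered. Depth ran from 810794 to 68171606 reads, and counting intervals and floors of 3 reads over a group cover counting error only.

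Tests used limma 3.58.1 (R 4.3.3) and took these values as they stand (trended empirical Bayes, 2-sided, Benjamini-Hochberg), separately for the 6 deep and the 9 shallow libraries. Genes with log2 CPM above 1 in at least 3 libraries of the fit were tested. The script was tested on simulated data. Percentiles, sums and figures used Python 3.11.15, pandas 2.3.3 and matplotlib 3.10.9. Positions came from GENCODE M21, and copies of at least 95% identity and 100 bases from BLAST 2.17.0. The members and lists were chosen with earlier results of these data known. Named genes were the 12 largest called differences per direction and 1 or more members per role; other called members were named as well, to account for all. An exact permutation test of 3 against 3 libraries cannot go below 0.1, so none is given. Alternatives were other filters, scalings, pseudocounts, voom weights, all libraries in 1 fit, a replicate block and each library left out.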

Additional observations from a re-analysis of the deposited data

How the results depend on the processing

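For ProNeut over PreNeut, the count of 29 members called became 0 (and 111 of all genes) with all 15 libraries in the fit. It became 1 (672 of all genes) with a call of at least 1 log2 unit, and 24 to 31 under the other filters, scalings, pseudocount, voom weights and the block. Leaving out libraries gave 22 to 29 members. For CD115plusGMP over CMP, the 4 members became 9 with all 15 libraries, 7 with quantile normalization, 10 with plain totals and 8 with voom weights. Of all genes, 956 were higher and 414 lower as deposited, against 1197 and 672 with all 15 libraries. Quantile normalization gave 925 and 747, plain totals 640 and 887, and voom weights 990 and 533. Leaving out libraries gave 1 to 3 members. Neutrophil over CMP gave 29 to 41 members in place of 35 with a library left out, and Neutrophil over CD115plusGMP 17 to 31 in place of 25. Chosen after seeing the data, leaving out members with copies gave 18 in place of 29. Leaving out members with an opposite-strand partner gave 2, 27 and 18 in place of 4, 35 and 25. Fewer members were then tested. In the main fits, 36.3% of all genes were called for ProNeut over PreNeut and 12.7% for CD115plusGMP over CMP. The shares were 48.6% for Neutrophil over CMP and 39.5% for Neutrophil over CD115plusGMP. The causes of the other shifts were not tested. With the group means taken out of each gene, what remained of same-numbered libraries correlated at -0.031 to 0.077. The numbers were therefore not taken as pairs. With a replicate block 31, 3, 34 and 24 members were called in place of 29, 4, 35 and 25.

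Among the members named by rule, whose differences were recomputed under each alternative, signs turned round in 55 runs over 23 differences, and of these only Eif5 in Neutrophil over CMP was called (-0.13 with plain totals). For ProNeut over PreNeut, Eif2ak3 became 0.015 with quantile normalization and 0.036 with median centring. Plain totals gave Eif2s3x -0.035, Eif2ak1 -0.070, Eif2ak2 -0.019 and Eif4ebp2 -0.017, and voom weights gave Eif2s3x -0.10 and Eif2ak1 -0.042. With libraries left out, Eif2s3x ran from -0.17 to 0.20, Eif2b5 from -0.23 to 0.025, Eif2ak1 from -0.084 to 0.17, Eif2ak2 from -0.048 to 0.13, Eif2ak3 from -0.098 to 0.094 and Eif4ebp2 from -0.0050 to 0.19.

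For CD115plusGMP over CMP, quantile normalization gave Eif5 -0.056 and Eif2ak2 -0.025, median centring Eif2ak2 -0.073 and Eif2ak4 -0.0091, and 2 CPM added Eif2ak4 -0.029. Plain totals gave Eif5 -0.34, Eif2s3x -0.38, Eif2ak2 -0.47, Eif2ak4 -0.41 and Eif4ebp2 -0.35. With libraries left out, Eif1 ran from -1.05 to 0.34, Eif2s1 from -0.37 to 0.10, Eif2s3x from -0.21 to 0.68, Eif2ak2 from -0.23 to 0.29, Eif4ebp2 from -0.59 to 0.61 and Eif5a from -0.50 to 0.026. For Neutrophil over CMP, Eif2ak2 became -0.20 with quantile normalization, and plain totals gave Eif2ak2 -0.47, Eif4ebp1 -0.52 and Eif4ebp2 -0.34. For Neutrophil over CD115plusGMP, Eif2s2 became -0.43 with quantile normalization, -0.16 with median centring, -0.65 with plain totals and -0.13 with 2 CPM added, and Eif2ak2 -0.18 with quantile normalization. With libraries left out, Eif1 ran from -1.21 to 0.19, Eif2s2 from -0.95 to 1.01, Eif2b5 from -1.19 to 0.53 and Eif4a1 from -1.94 to 0.72. Depth limits the shallow set, where many members rest on under 30 reads in a group.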
